A study of Mus musculus with 6 samples.

Results

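Haematopoietic support factors are the secreted and cell-surface proteins with which marrow stroma keeps blood stem and progenitor cells alive, quiescent or dividing. Their transcripts were followed here in MS-5 cells, a mouse stromal line, through 10 genes taken by name: Kitl, Flt3l, Thpo, Csf1, Il7, Il6, Lif, Angpt1, Vcam1 and Jag1. They are 10 of the 35968 genes with a transcript in the deposited tables, and all 10 passed the filter on low counts that left 13221 genes for testing. RNA-seq covered 3 libraries of MS-5 cells kept alone (MS-5 only, named MO1 to MO3) and 3 libraries of MS-5 cells kept for 24 hr with SKM-1 cells (co-culture, named MC1 to MC3). SKM-1 is a human acute myeloid leukaemia (AML) line, seeded at 4 cells per MS-5 cell and 750000 cells per ml, and the labels name no other agent and no genetic change in either group. Leukaemic cells were washed off and detached by mild trypsin before the stroma was lysed, so that the stroma was enriched and not sorted. Both cell types are single lines, and nothing in the sources used here says that the 3 libraries of a group came from separate cultures. The p-values therefore measure only the spread between these libraries, which may be technical.

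The listed factors act in a few circuits. Kitl (stem cell factor) and Flt3l bind the receptors Kit and Flt3 on stem and early progenitor cells, and Thpo acts on stem cells and megakaryocytes. Csf1 drives the monocyte and macrophage lineage through Csf1r, and Il7 the growth of lymphoid precursors. Il6 and Lif signal through the shared receptor chain gp130, encoded by Il6st. Angpt1 is the ligand of Tek (Tie2), Vcam1 holds blood cells through the integrin of Itga4 and Itgb1, and Jag1 is a membrane ligand of Notch receptors.

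None of the 10 support factors passed the threshold in either direction. Over all genes tested, 579 of 13221 (4.38%) were past an adjusted p of 0.1 in edgeR's quasi-likelihood test, 491 higher and 88 lower in co-culture. Of the 10 factors, 0 had an unadjusted p under 0.05, against 14.3% of all genes tested, and DESeq2's Wald test also called 0 of them, against 9.59% of all genes tested. Every factor had at least 1 co-culture library within the range of MS-5 only, while 21.2% of all genes tested had groups that did not overlap (11.6% with co-culture above and 9.6% below). The fitted log2 fold changes ran from -0.40 (Kitl) to 0.78 (Lif), 5 above and 5 below 0, with a median of 0.021 against -0.019 over all genes tested. All 10 of the 95% intervals spanned 0. The narrowest, that of Vcam1, ran from 0.750-fold to 1.16-fold, and the widest, that of Thpo, from 0.390-fold to 7.46-fold, so that the data bound the change of some factors closely and that of others hardly at all. In bulk RNA, fewer cells with a transcript and less of it per cell cannot be told apart.

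**Figure D1:**
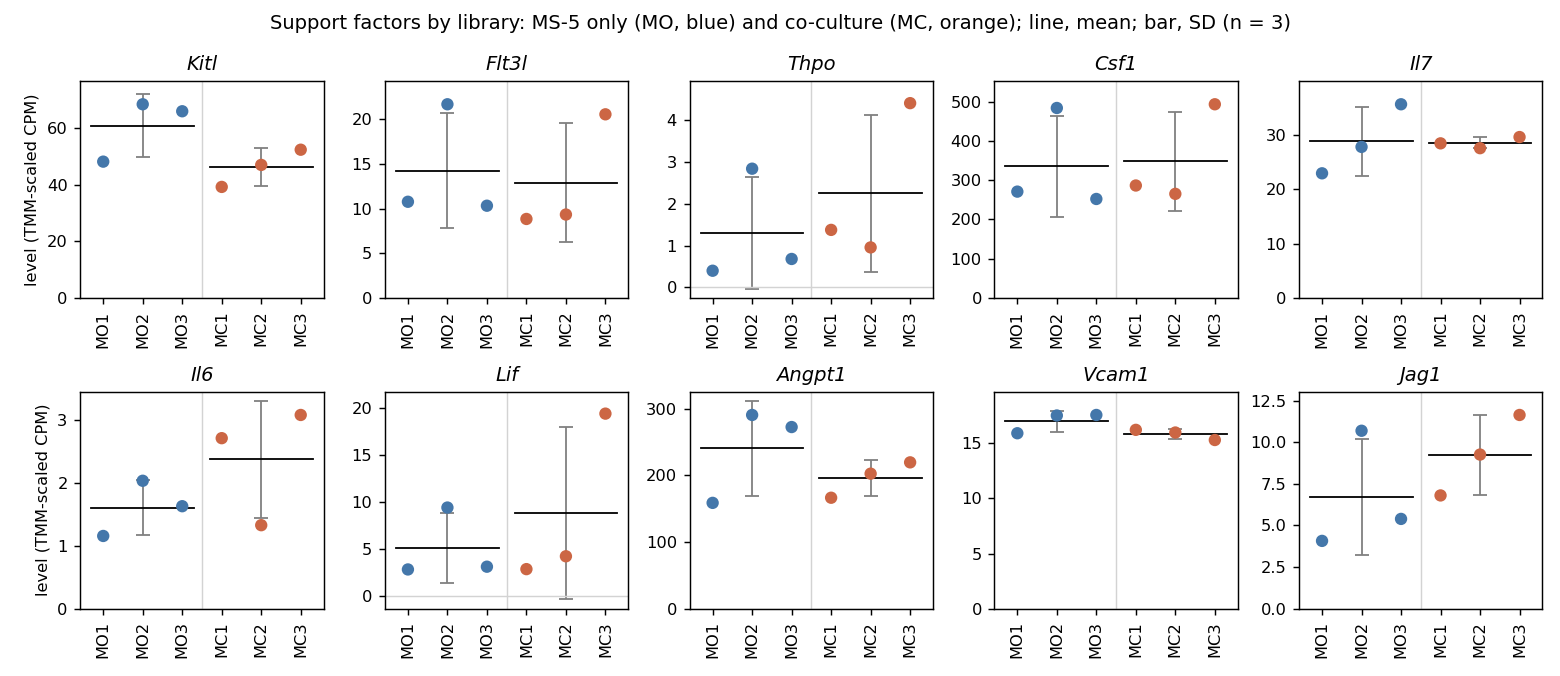
Level of each support factor in each library, in TMM-scaled CPM (each panel has its own axis from 0), with the 3 MS-5 only libraries in blue and the 3 co-culture libraries in orange; lines are group means and bars the SD (n = 3). In all 10 panels the groups overlap, and in 8 of them, all but Il7 and Vcam1, MO2 and MC3 are the highest libraries of their groups, as in 33.0% of all genes tested.

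MO2 and MC3 stood apart from the other 4 libraries in a way that no label explains, and this bears on most of the factors. On principal components of log2 CPM the second component (25.6% of the variance) placed MO2 at -55.8 and MC3 at -51.9, against 23.4 to 33.0 in the other 4. Transcripts annotated as retained introns held 5.25% and 5.38% of TPM in MO2 and MC3 and 2.47% to 2.74% in the others, and mitochondrial genes held 6.07% and 5.92% of counts against 10.6% to 13.2%. TPM is a per-length unit fixed to the same total in every library. Over 10674 genes, log2 TPM exceeded the mean of the group's other libraries by a median of 0.59 (MO2) and 0.58 (MC3). Libraries are therefore compared in CPM here and genes in TPM. Total estimated counts ran from 23978881 to 35694987. The 12 stromal markers summed to 5364 CPM in MO2 and 5563 CPM in MC3, the lowest sums, against 8580 to 11620 CPM in the other 4, and Lum, Dcn and Nt5e among them had 0 to 3 counts in every library. Most of each sum came from Vim, Col1a1 and Acta2, which, like Eng, were lowest in MO2 and MC3 of their groups. Pdgfra, Pdgfrb, Col3a1 and Thy1 went the other way and were highest in MO2 and MC3. Col1a2 was highest in MO2 and MC1. The sums therefore do not describe the stromal markers as a whole. The 18 leukocyte markers summed to 29.5 to 51.1 CPM in MS-5 only and to 71.3, 279 and 75.1 CPM in MC1, MC2 and MC3. The part of either marker list in the results on the support factors was not tested.

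Levels of the 10 factors in MS-5 only spanned 110-fold per length, or 229.6-fold without MO2. Csf1 was the highest at 152 ± 101 TPM (SD, n = 3) and lay above 93.7% of the genes tested, followed by Angpt1 at 76.4 ± 38.8 TPM. A middle group held Flt3l at 20.6 ± 16.2 TPM, Kitl at 19.0 ± 6.88 TPM and Il7 at 16.7 ± 5.05 TPM, with Vcam1 below them at 7.23 ± 2.94 TPM. The lowest were Lif (2.86 ± 3.13 TPM), Il6 (2.26 ± 0.775 TPM), Jag1 (1.77 ± 1.39 TPM) and Thpo (1.38 ± 1.70 TPM), the last above 16.1% of the genes tested. Only the steps from Angpt1 to Flt3l (3.72-fold) and from Il7 to Vcam1 (2.31-fold) separated neighbours without overlap of their MS-5 only libraries. For Vcam1 and Lif the means differed by more than the larger SD, but the ranges overlapped through MO2. Every other pair of neighbours differed by less than that SD, although Csf1 exceeded Angpt1 in 6 of 6 libraries. In co-culture the order was the same except that Il7 exceeded Kitl in 3 of 3 libraries, where Kitl had exceeded Il7 in 3 of 3 of MS-5 only. The places of Flt3l above Kitl and of Lif above Il6 each rested on 1 of 3 libraries in both groups, MO2 and MC3.

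**Figure D2:**
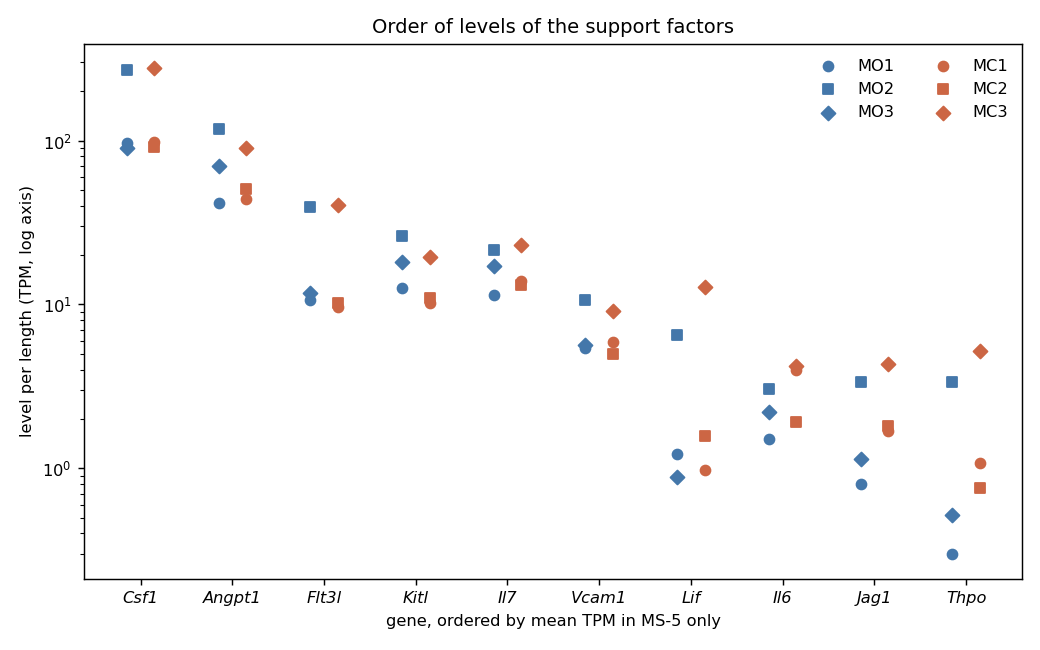
Level per length of each support factor (TPM, log axis) in each MS-5 only library (blue) and co-culture library (orange), ordered by the MS-5 only mean. Csf1 and Angpt1 lie above the other 8 factors within each library, and MO2 and MC3 are the highest library of their group for every factor.

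The ligands of stem and early progenitor cells had fitted differences on either side of 0, with Kitl and Flt3l below it and Thpo above. Kitl (ENSMUSG00000019966.18, chr10:100015630-100100416, plus strand, GENCODE M21 on GRCm38) was measured at 48.2, 68.5 and 66.0 CPM in MO1, MO2 and MO3 and 39.2, 47.0 and 52.4 in MC1, MC2 and MC3 (CPM, estimated counts scaled by TMM for library size). Every co-culture library lay below MO2 and MO3, and MC3 lay above MO1. Means were 60.9 ± 11.1 and 46.2 ± 6.61 CPM (SD, n = 3 each). The log2 fold change was -0.40 (SE 0.19, 95% interval -0.85 to 0.054, edgeR adjusted p = 0.418), the smallest p of the 10 factors, corresponding to 0.759-fold. The difference was -0.39 log2 units between the means of MC1 and MC2 and of MO1 and MO3, and -0.39 between MC3 and MO2. With a term for MO2 and MC3 in the fit it was -0.40 (95% interval -0.72 to -0.073, edgeR adjusted p = 0.0859) and Kitl was past the threshold, as the only factor of the 10, in a fit that placed 30.2% of all genes tested past it (16.4% lower). Without MO2 and MC3 the estimate was -0.38 with an adjusted p of 0.262, where 13.0% of all genes tested and 0 of the 10 factors were past the threshold.

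The sequence that sets the form of Kitl protein could be followed as well. The annotated exon 6 of the 10 exons of Kitl-202, at chr10:100080857-100080940 (GRCm38, plus strand), is 84 bases long, wholly coding and a multiple of 3. It encodes the stretch in which the membrane protein is cut to release soluble stem cell factor, and Kitl-201 joins the exons on either side without it. The lines give the exon in capitals between the last 30 bases of the exon before it and the first 30 of the exon after it, and the same join without it, as in the GENCODE M21 transcripts.
Kitl-202: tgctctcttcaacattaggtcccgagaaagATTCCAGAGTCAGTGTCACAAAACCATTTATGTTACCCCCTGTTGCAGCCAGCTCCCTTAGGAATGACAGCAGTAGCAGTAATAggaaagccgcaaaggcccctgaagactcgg
Kitl-201: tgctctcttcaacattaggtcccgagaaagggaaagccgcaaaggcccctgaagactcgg
Kitl-202 was the main transcript in every library, with 68.3%, 72.9% and 60.8% of the gene's TPM in MO1, MO2 and MO3 and 69.4%, 75.6% and 77.9% in MC1, MC2 and MC3. Kitl-201 was given 0%, 2.57% and 2.64% and 2.25%, 0% and 8.09%, from 0, 13.7 and 10.9 and 7.49, 0 and 34.7 estimated counts. These 2 transcripts also differ in the length of their last exon, so that the split does not rest on the 84 bases alone. Most of the remainder went to Kitl-206, a retained-intron transcript of the 3′ part of the gene, with 26.1%, 23.8% and 31.0% in MO1, MO2 and MO3 and 23.8%, 18.8% and 11.8% in MC1, MC2 and MC3. In this transcript the co-culture shares reached from the lowest of all to the level of MO2.

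Flt3l (ENSMUSG00000110206.1, chr7:45129788-45136432, minus strand) was measured at 10.8, 21.7 and 10.3 CPM in MO1, MO2 and MO3 and 8.85, 9.35 and 20.6 in MC1, MC2 and MC3. MO2 and MC3 were about level with each other and near 2 times the other 4 libraries. The fit gave a log2 fold change of -0.14 (SE 0.44, 95% interval -1.20 to 0.92, edgeR adjusted p = 0.963). Left out, MO2 turned the estimate to 0.29, MC1 to 0.056 and MC2 to 0.036. Among the other 4 libraries MC1 and MC2 lay below MO1 and MO3. Retained-intron transcripts held 24.4%, 52.8% and 20.2% of its TPM in MO1, MO2 and MO3 and 12.1%, 9.48% and 47.3% in MC1, MC2 and MC3, so that the libraries with the high Flt3l level also had the largest share of it in such transcripts. A second protein-coding model, Gm45713, overlaps 6444 bases of Flt3l on the same strand and was given 0.259 CPM on average, and how reads were split between the genes was not tested.

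Thpo (ENSMUSG00000022847.15, chr16:20724454-20734511, minus strand), which supports megakaryocytes and stem cells, was the lowest factor. It was measured at 0.399, 2.83 and 0.680 CPM in MO1, MO2 and MO3 and 1.37, 0.955 and 4.40 in MC1, MC2 and MC3, from 10 to 151 estimated counts per library. MO2 and MC3 were again the highest of their groups, and MC1 and MC2 lay above MO1 and MO3 but below MO2. The fit gave a log2 fold change of 0.77 (SE 0.89, 95% interval -1.36 to 2.90, edgeR adjusted p = 0.820). Without MC3 the estimate turned to -0.17, and without MO2 it was 2.05 (adjusted p = 0.234). With the term for MO2 and MC3 it was 0.93 (adjusted p = 0.105). Thpo overlaps 1385 bases of Chrd (10.2 CPM on average) on the opposite strand. The paper's methods name a stranded library kit, but whether the counting used strand is not given in the sources used here.

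The lineage cytokines were close to level between the groups. Csf1 (ENSMUSG00000014599.10, chr3:107741048-107760469, minus strand) was measured at 271, 484 and 252 CPM in MO1, MO2 and MO3 and 286, 265 and 493 in MC1, MC2 and MC3. MO2 and MC3 were nearly equal, and the other 4 libraries lay within 252 to 286 CPM. The fitted log2 fold change was 0.053 (SE 0.36, 95% interval -0.80 to 0.90, edgeR adjusted p = 0.985). Its sign turned without MO1 (-0.048), MO3 (-0.12) or MC3 (-0.28), and without MO2 it was 0.41. With the term for MO2 and MC3 the interval narrowed to -0.11 to 0.23 around 0.06 (adjusted p = 0.586). Il7 (ENSMUSG00000040329.14, chr3:7569994-7613760, minus strand) was measured at 23.0, 27.8 and 35.7 CPM in MO1, MO2 and MO3 and 28.5, 27.6 and 29.6 in MC1, MC2 and MC3. The co-culture libraries lay inside the range of MS-5 only, with an SD of 1.03 CPM against 6.42. The fit gave a log2 fold change of -0.012 (SE 0.18, 95% interval -0.45 to 0.43, edgeR adjusted p = 0.993). This estimate was so near 0 that its sign turned under several scalings and without MO3 (0.17) or MC2 (0.0067).

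Csf1, like Kitl, is made in secreted and membrane-spanning forms. In Csf1-201 and Csf1-203 exon 6 of Csf1-201 spans 1016 coding bases (chr3:107748154-107749169, minus strand), whereas Csf1-202 and Csf1-204 keep only its last 131 (chr3:107748154-107748284), leaving out 885 bases that encode the cleavage and glycosaminoglycan attachment sites of the secreted form. The lines give the last 30 bases of exon 5 and, in capitals, the first 30 of exon 6 in each form, to show where the shorter one joins.
Csf1-201: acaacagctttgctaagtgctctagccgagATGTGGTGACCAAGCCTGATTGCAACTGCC
Csf1-202: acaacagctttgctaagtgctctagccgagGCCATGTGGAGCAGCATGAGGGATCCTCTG
Transcripts with the long exon held 76.9%, 64.3% and 77.1% of Csf1 TPM in MO1, MO2 and MO3 and 80.6%, 72.2% and 66.9% in MC1, MC2 and MC3. Those with the short exon held 9.31%, 19.9% and 12.5% and 12.8%, 17.5% and 17.2%. The long form was the larger in every library, and the shares of the groups overlapped for both forms.

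The gp130 cytokines had higher fitted values in co-culture with wide intervals. Il6 (ENSMUSG00000025746.11, chr5:30013114-30019981, plus strand) was measured at 1.16, 2.04 and 1.63 CPM in MO1, MO2 and MO3 and 2.72, 1.33 and 3.09 in MC1, MC2 and MC3, from 29 to 106 estimated counts. MC1 and MC3 lay above every MS-5 only library and MC2 lay below MO2 and MO3. Between the groups the log2 fold change was 0.56 (SE 0.43, 95% interval -0.46 to 1.59, edgeR adjusted p = 0.657). The estimate stayed above 0 whichever library was left out (0.33 to 0.84). Lif (ENSMUSG00000034394.14, chr11:4257557-4272514, plus strand) was measured at 2.83, 9.42 and 3.13 CPM in MO1, MO2 and MO3 and 2.87, 4.24 and 19.4 in MC1, MC2 and MC3. MC3 was more than 2 times the next library, MO2, and the other 4 lay within 2.83 to 4.24 CPM. Between the groups the log2 fold change was 0.78 (SE 0.83, 95% interval -1.21 to 2.77, edgeR adjusted p = 0.795). Without MC3 it turned to -0.54, and without MO2 it was 1.56.

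The division of Il6 among its transcripts rested on few counts. Il6-202, a protein-coding transcript of 651 bases, was listed at 0 in all 3 MS-5 only libraries and was given 12.4, 5.43 and 7.46 estimated counts in MC1, MC2 and MC3, or 22.4%, 26.2% and 18.7% of Il6 TPM. Il6-204 held 96.5%, 76.2% and 100.0% in MO1, MO2 and MO3 and 74.7%, 63.8% and 44.5% in MC1, MC2 and MC3. As shares of estimated counts the groups overlapped for Il6-204, at 90.8%, 53.3% and 100.0% and 78.3%, 69.6% and 28.1%. Il6-203 was largest in MO2 and MC3, at 23.8% and 36.8% of TPM, and at most 3.47% in the other 4. These shares describe how Kallisto assigned a small number of reads, with no test. The summed leukocyte markers were also higher in co-culture, and their part in this was not tested.

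Promoters of Il6, Lif and Csf1 are shown because short motifs of inducible factors were found in them. The GRCm38.p6 RefSeq table held promoters of 7 of the 10 factors (Kitl, Flt3l, Thpo, Csf1, Il6, Lif and Jag1). The bases before the start site of each were searched on both strands. The NF-κB consensus was present in 7.25% of all 32851 promoters and in those of Il6 (starting at -44), Csf1 (-154), Lif (-178) and Kitl (-152, not shown). A narrower form of the NF-κB motif, searched first, had matched Il6 and Csf1 but not Lif or Kitl, and the wider consensus was taken after those matches were seen. The AP-1 motif TGANTCA was present in 6.75% of all promoters and in those of Il6 (-249) and Lif (-228), and the C/EBP motif TTNNGNAAT in 10.2% of all and in that of Il6 (-128). No matches overlapped one another. The STAT motif TTCNNNGAA (7.02% of all) was found in none of the 7, and TATAAA (12.4%) in that of Kitl (-25). Positions are counted back from the RefSeq start site. The lines of Il6 and Csf1 run up to the base before it, and that of Lif stops a few bases short of it, at the base before the start of the gene in GENCODE M21, with matches to the first 3 motifs in capitals. They cover chr5:30012864-30013113 (plus strand), chr11:4257318-4257556 (plus) and chr3:107760470-107760719 (minus).
Il6: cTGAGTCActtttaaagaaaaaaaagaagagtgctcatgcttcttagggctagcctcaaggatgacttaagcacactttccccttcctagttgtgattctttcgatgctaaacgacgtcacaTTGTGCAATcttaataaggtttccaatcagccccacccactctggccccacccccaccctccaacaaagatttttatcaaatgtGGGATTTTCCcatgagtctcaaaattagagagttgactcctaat
Lif: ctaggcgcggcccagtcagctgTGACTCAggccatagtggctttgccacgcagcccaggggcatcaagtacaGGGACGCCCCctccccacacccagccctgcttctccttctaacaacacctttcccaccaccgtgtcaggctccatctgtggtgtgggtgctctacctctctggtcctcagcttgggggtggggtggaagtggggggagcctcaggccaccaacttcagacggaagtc
Csf1: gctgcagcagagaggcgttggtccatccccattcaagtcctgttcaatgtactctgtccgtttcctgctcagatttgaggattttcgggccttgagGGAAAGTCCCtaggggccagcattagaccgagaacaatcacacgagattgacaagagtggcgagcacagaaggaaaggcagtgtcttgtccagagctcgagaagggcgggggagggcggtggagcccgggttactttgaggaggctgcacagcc
A match is a stretch of letters and was not measured as a bound site. Beside them, Il6 and Lif had fitted differences of 0.56 and 0.78 log2 units, Csf1 of 0.053 and Kitl of -0.40, none past the threshold.

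Among the vascular, adhesion and Notch ligands, Vcam1 was the most evenly measured of all factors. Angpt1 (ENSMUSG00000022309.9, chr15:42424723-42676977, minus strand) was measured at 159, 291 and 273 CPM in MO1, MO2 and MO3 and 167, 203 and 219.8 in MC1, MC2 and MC3. MO2 and MO3 lay above every co-culture library, and MO1 lay below every one of these. The log2 fold change was -0.29 (SE 0.26, 95% interval -0.91 to 0.32, edgeR adjusted p = 0.726). Its estimate stayed below 0 whichever library was left out (-0.49 to -0.14). Nearly all Angpt1 TPM, 100.0%, 99.5% and 99.7% in MO1, MO2 and MO3 and 99.6%, 99.8% and 99.5% in MC1, MC2 and MC3, belonged to Angpt1-201. Vcam1 (ENSMUSG00000027962.14, chr3:116109949-116129688, minus strand) was measured at 15.9, 17.5 and 17.6 CPM in MO1, MO2 and MO3 and 16.2, 16.0 and 15.3 in MC1, MC2 and MC3, and its SD of log2 CPM over the MS-5 only libraries (0.0809) was above that of only 6.91% of the genes tested. The co-culture libraries overlapped MS-5 only in a narrow range. The fitted log2 fold change was -0.10 (SE 0.13, 95% interval -0.42 to 0.21, edgeR adjusted p = 0.845). Jag1 (ENSMUSG00000027276.7, chr2:137081456-137116644, minus strand) was measured at 4.07, 10.7 and 5.39 CPM in MO1, MO2 and MO3 and 6.81, 9.26 and 11.6 in MC1, MC2 and MC3. Every co-culture library lay above MO1 and MO3, and MO2 lay above MC1 and MC2. The fit gave a log2 fold change of 0.46 (SE 0.40, 95% interval -0.51 to 1.42, edgeR adjusted p = 0.728). The value was 0.54 (95% interval 0.016 to 1.06, adjusted p = 0.131) with the term for MO2 and MC3, and 0.96 (adjusted p = 0.179) without MO2 alone. Its retained-intron transcript, Jag1-202, held, as shares of Jag1 TPM, 1.02%, 4.65% and 12.8% in MO1, MO2 and MO3 and 27.2%, 5.66% and 22.7% in MC1, MC2 and MC3, from 0.245, 3.79 and 3.94 and 17.9, 3.10 and 25.8 estimated counts.

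**Figure D3:**
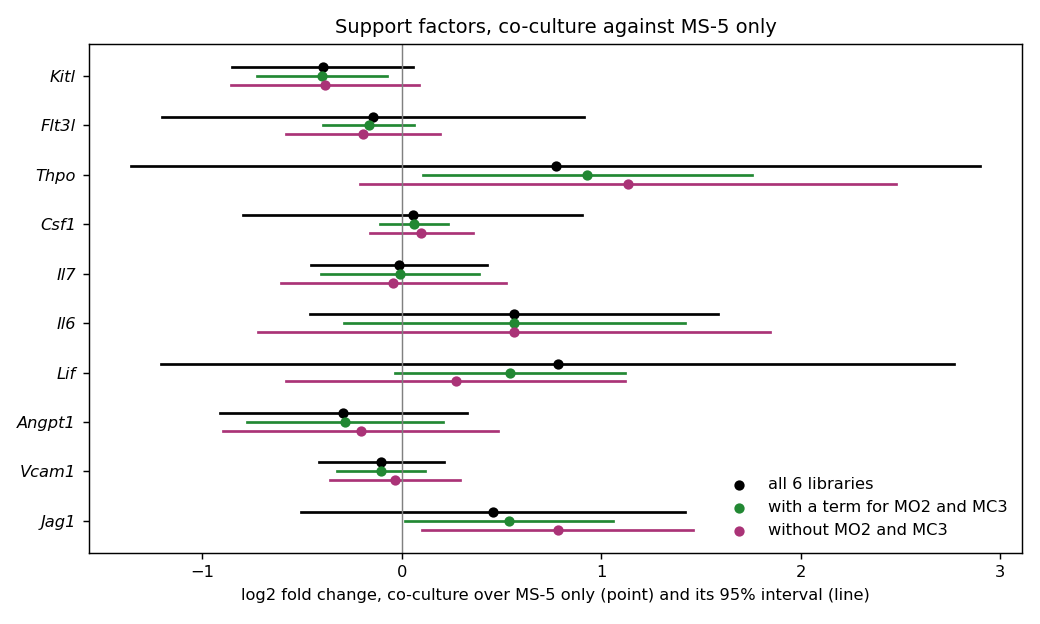
Log2 fold change of each support factor, co-culture over MS-5 only, as a point with its 95% interval, from all 6 libraries (black), with a term for MO2 and MC3 (green) and without these libraries (purple). All 10 black intervals cross 0, while the green intervals of Kitl, Thpo and Jag1 and the purple one of Jag1 do not; after adjustment over all genes tested only the green value of Kitl is past the threshold.

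The factors differed in how far they were raised in MO2 and MC3. Relative to the other libraries of the group, the level in log2 CPM of Thpo differed by 2.23 in MO2 and 1.85 in MC3, that of Lif by 1.63 in MO2 and 2.44 in MC3 and that of Flt3l by 1.03 in MO2 and 1.17 in MC3. These 3 of 10 factors exceeded 1 log2 unit in both libraries, as did 6.34% of all genes tested, and Jag1 did so in MO2 only (1.17 in MO2 and 0.55 in MC3). Taken singly, 11.0% of all genes tested exceeded 1 log2 unit in MO2 and 7.75% in MC3. Csf1 (0.89 in MO2 and 0.84 in MC3), Il6 (0.53 in MO2 and 0.67 in MC3) and Angpt1 (0.48 in MO2 and 0.26 in MC3) were raised less, and Kitl by 0.28 in MO2 and 0.29 in MC3. Vcam1 (0.067 in MO2 and -0.073 in MC3) and Il7 (-0.041 in MO2 and 0.08 in MC3) were level. The medians over the 10 factors were 0.71 and 0.61, against 0.0057 and -0.067 over all genes tested. When MO2 and MC3 were left out, Kitl and Flt3l were lower and Thpo and Jag1 higher in both co-culture libraries than in both of MS-5 only. Such a split of 2 against 2 was found in 59.7% of all genes tested, 29.3% with co-culture above and 30.4% below.

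**Figure D4:**
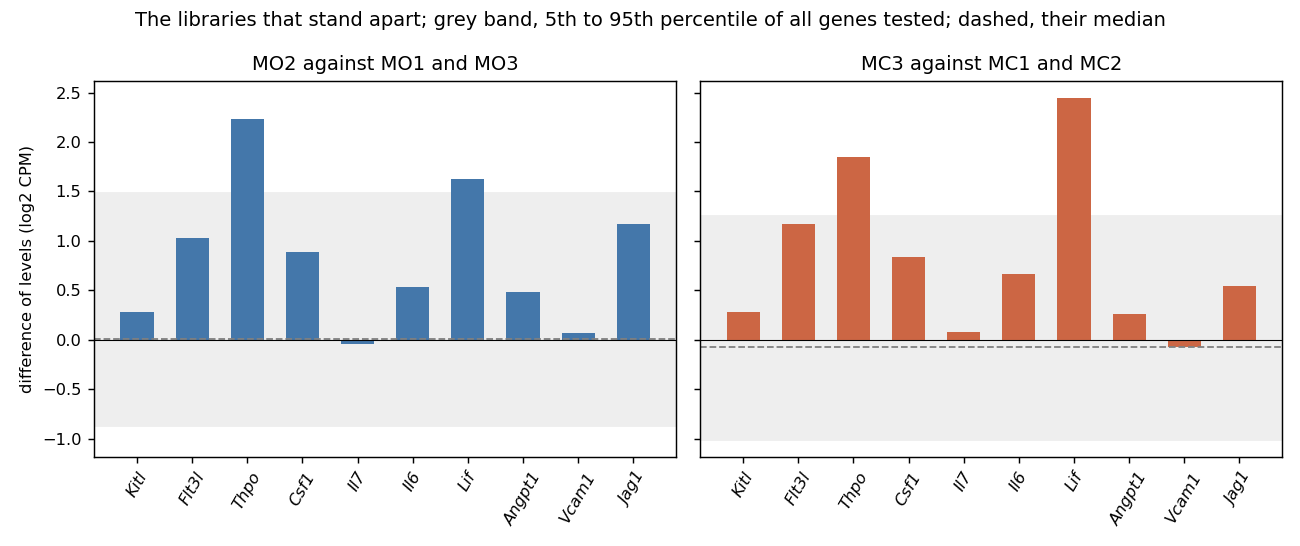
Difference in log2 CPM of MO2 from the mean of MO1 and MO3 (left) and of MC3 from the mean of MC1 and MC2 (right) for each support factor; the grey band runs from the 5th to the 95th percentile of all genes tested and the dashed line is their median. Thpo and Lif lie above the band in both panels, and Vcam1 and Il7 lie near 0.

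**Figure D5:**
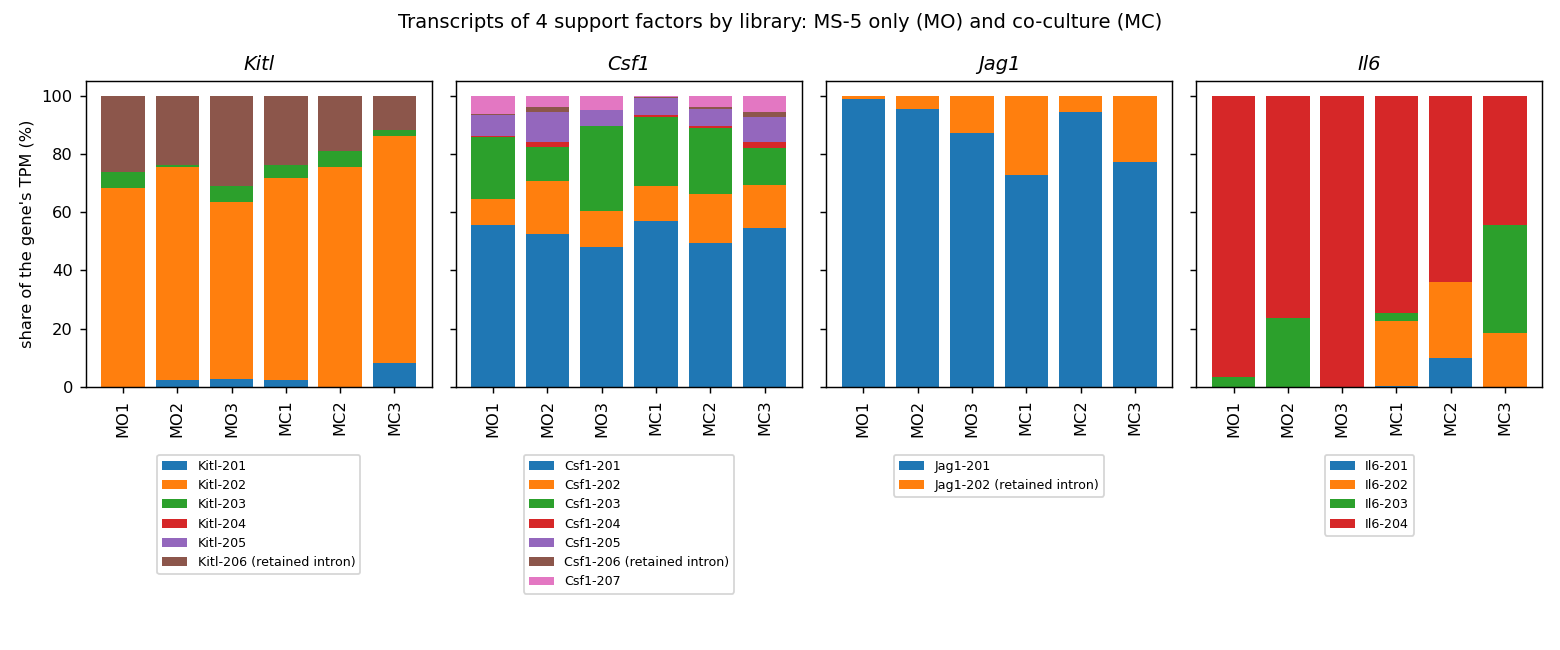
Share of each gene's TPM (%) given to each annotated transcript of Kitl, Csf1, Jag1 and Il6 in each library, stacked to 100%. Kitl-202 is the largest share of Kitl and Csf1-201 of Csf1 in every library, and Il6-202 appears in the 3 co-culture libraries only.

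The receptors of these factors ranged from undetected to abundant in the stroma. Of 18 receptor genes 11 were tested, and 2 rose and 0 fell (3.71% of all genes tested rose and 0.666% fell), with a median log2 fold change of 0.23. Kit, Flt3, Il7r, Il2rg, Tek and Tie1 were among those that did not pass the filter. Kit had 0 counts in each MS-5 only library and 1, 33 and 7 in MC1, MC2 and MC3. Retained-intron transcripts held 100.0%, 90.5% and 95.3% of its TPM in MC1, MC2 and MC3. Notch3, a receptor of Jag1, was measured at 127, 190.2 and 141 CPM in MO1, MO2 and MO3 and at 299, 265 and 328 CPM in MC1, MC2 and MC3. All 3 co-culture libraries were above all 3 of MS-5 only, with a log2 fold change of 0.96 (SE 0.20, edgeR adjusted p = 0.0842). The direction held whichever library was left out, but the adjusted p then lay between 0.129 and 0.300, past the threshold in none of the 6 fits, and it was not past it with library size scaling (0.204), limma on log2(TPM + 0.5) (0.569) or the length offset (0.1104). Csf1r, the receptor of Csf1, was measured at 0.0798, 0.0318 and 0.227 CPM in MO1, MO2 and MO3 and at 1.07, 5.36 and 1.22 CPM in MC1, MC2 and MC3, with a log2 fold change of 4.51 (SE 0.99, adjusted p = 0.0875). Csf1r is also a leukocyte marker, and like the summed leukocyte markers it was highest in MC2. It was past the threshold without MC3 (adjusted p = 0.0771) and not without any other single library (0.116 to 0.308), with limma (0.349) or with the length offset (0.260). The gp130 chain Il6st and the integrin chain Itgb1 were abundant, at 303, 374 and 371 CPM in MO1, MO2 and MO3 and at 383, 387 and 424 CPM in MC1, MC2 and MC3 for Il6st, and neither passed the threshold (adjusted p = 0.716 and 0.953). Both were chosen after their values were seen, Il6st as the chain shared by Il6 and Lif and Itgb1 as a chain of the Vcam1 receptor.

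Genes downstream of gp130 and NF-κB gave 1 call of 14 tested, Socs3, where 3.71% of all genes tested rose. Fitted values were above 0 in 12 of 14, against 6276 of 13221 over all genes tested. The median log2 fold change was 0.48 against -0.019 over all genes tested. Socs3, the feedback inhibitor of gp130 signalling, was measured at 45.3, 44.8 and 40.2 CPM in MO1, MO2 and MO3 and at 117, 79.4 and 125 CPM in MC1, MC2 and MC3. No co-culture library overlapped MS-5 only, and the log2 fold change was 1.30 (SE 0.20, edgeR adjusted p = 0.0734). It was past the threshold without MC1, MC2 or MC3 (0.0208 to 0.0990) and not without MO1, MO2 or MO3 (0.149 to 0.300) or with limma (0.244). Of the 14 genes, 5 had groups that did not overlap, all with co-culture above, where 11.6% of all genes tested did. With the term for MO2 and MC3, 8 rose and 1 fell, in a fit in which 13.9% of all genes tested rose and 16.4% fell. Without these libraries 6 rose and 1 fell, where 13.0% of all genes tested were called, and DESeq2 called 4, all higher, where it called 9.59%. The summed leukocyte markers were also higher in co-culture (71.3 to 279 CPM against 29.5 to 51.1 CPM), with most of the MS-5 only sums in Lyz2 and Cd68. The part of the leukocyte markers in this list was not tested.

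The other lists of related genes, markers apart, gave 0 calls each, and the gene with the largest fitted change stands for each list. Notch ligands and targets (4 of 12 tested, 1 with an unadjusted p under 0.05) had a median of 0.19. Their leading gene Hes1, a Notch target, was measured at 0.878, 1.18 and 0.771 CPM in MO1, MO2 and MO3 and at 2.26, 1.54 and 2.74 CPM in MC1, MC2 and MC3, with no overlap (log2 fold change 1.20, SE 0.37, adjusted p = 0.191). Other haematopoietic cytokines (5 of 16 tested, 0 with an unadjusted p under 0.05) had a median of 0.14. Tslp, a lymphoid cytokine, was the farthest from 0 among them at 0.94 (adjusted p = 0.429), on 6 to 28 counts per library. All of its TPM was assigned to a transcript annotated as a retained intron in each library. The genes of Il3, Il5, Csf2, Csf3, Epo, Il11, Ctf1, Osm, Il1a, Il1b and Tnf did not pass the filter.

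Angiopoietins and angiopoietin-like genes (5 of 8 tested, 1 with an unadjusted p under 0.05) had a median of -0.034. Angptl6 was measured at 7.30, 7.16 and 5.35 CPM in MO1, MO2 and MO3 and at 4.61, 4.03 and 4.28 CPM in MC1, MC2 and MC3, with no overlap (-0.62, adjusted p = 0.241). Adhesion genes (5 of 9 tested, 0 with an unadjusted p under 0.05) had a median of 0.028, with Ncam1 at 1.00 (adjusted p = 0.661). Niche growth factors (10 of 14 tested, 1 with an unadjusted p under 0.05) had a median of 0.10, with Hgf at 0.46 (adjusted p = 0.825). Niche transcription factors and stromal identity genes (5 of 7 tested, 1 with an unadjusted p under 0.05) had a median of 0.17, with Lepr at 1.79 (adjusted p = 0.533) on 0 to 20 counts. DESeq2's Wald test called 1 gene of the Notch list, Hes1, and 0 of each of the others. With the term for MO2 and MC3, where 30.2% of all genes tested were called, 5 genes of these lists were past the threshold: Hes1 (adjusted p = 0.039), Angptl6 (0.0606), Cdh2 (0.063), Pros1 (0.0697) and Foxc1 (0.0164). Without these libraries, where 13.0% were, Foxc1 (0.077) and Lepr (0.0823) were. Cdh2, Pros1 and Foxc1, and Pdgfra and Pdgfrb among the stromal markers, are named for these calls, after their values were seen.

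Stromal markers (9 of 12 tested, 1 with an unadjusted p under 0.05) gave 0 calls in edgeR and DESeq2, with Acta2, smooth muscle actin, the farthest from 0 at -0.88 (adjusted p = 0.676). With the term for MO2 and MC3, Pdgfra and Pdgfrb rose and Acta2 fell (log2 fold change -0.92, adjusted p = 0.0155), in a fit that called 30.2% of all genes tested. Without these libraries Pdgfra and Acta2 were called (adjusted p = 0.077 and 0.0839), where 13.0% of all genes tested were. Of 12 leukocyte markers tested 8 rose, against 3.71% of all genes tested, the largest being Irf8, Vav1, Laptm5 and Cebpe. The count was 0 without MO1, MO2 or MO3, 6 to 9 without MC1, MC2 or MC3, 5 with limma, 10 with DESeq2 and 0 at a threshold of 0.05. Irf8, a myeloid transcription factor, had 0 counts in the 3 MS-5 only libraries and 1.40, 7.93 and 2.15 CPM in MC1, MC2 and MC3. Laptm5, a lysosomal protein of blood cells, was measured at 0.0798, 0.127 and 0.0453 CPM in MO1, MO2 and MO3 and at 4.46, 27.5 and 3.20 CPM in MC1, MC2 and MC3. Vav1, a blood-cell signalling protein, reached 1.19, 6.81 and 1.60 CPM in co-culture and Cebpe, a granulocyte factor, 0.610, 4.28 and 0.728. All 4 were highest in MC2, as were Csf1r and Kit. Not every leukocyte marker was, and within co-culture Elane, Cd33 and Cd68 were highest in MC3. Lyz2 and Cd68, chosen after their values were seen as the markers with the most counts in MS-5 only, did not pass the threshold (log2 fold change -0.37 and -0.34, adjusted p = 0.600 and 0.686). Lyz2 was measured at 16.8, 21.7 and 30.4 CPM in MO1, MO2 and MO3 and at 18.5, 19.9 and 14.8 CPM in MC1, MC2 and MC3, and Cd68 at 10.9, 19.1 and 19.1 CPM in MO1, MO2 and MO3 and at 11.0, 11.8 and 16.0 CPM in MC1, MC2 and MC3.

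The genes most like the 3 factors with the smallest p were found by the root mean square distance between log2 CPM profiles over the 6 libraries, each centred on its mean. For Kitl they were LTO1 (0.067), Slc25a40 (0.074) and Mthfsd (0.083), against a spread of Kitl itself of 0.28. Tmem150a (0.053), Dpp7 (0.066) and P2rx4 (0.068) were the nearest to Angpt1, whose own spread was 0.33. For Il6, with a spread of 0.50, the nearest were Polm (0.21), Osbpl7 (0.22) and Card10 (0.23), at larger distances. Il6 itself lay at 1.16 to 3.09 CPM, below the level asked of the genes ranked. The part of counting error in its distances was not tested. About 9075 genes with a mean of at least 10 CPM were ranked in each case.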

How the data were processed

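Estimated counts and TPM values of 118489 mouse transcripts were deposited by the authors for each library, from Kallisto 0.43.0 against a GRCm38 cDNA index, with no filter and no scaling of estimated counts between libraries. The labels name mm10. The authors' TPM values are estimated counts per effective length at a fixed total. The deposited lengths and effective lengths, in bases, served for matching and for a length offset. The 116728 transcripts that matched GENCODE M21 by version and length were summed per gene, counts were rounded, and 1761 were left out. The sequencing platform is named in 2 ways in the methods.

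Genes were filtered with filterByExpr, scaled by TMM and tested in edgeR 4.0.16 (R 4.3.3) with its quasi-likelihood F test (Benjamini-Hochberg over 13221 genes, threshold 0.1). Standard errors are the log2 fold change over the square root of F, and intervals use the t distribution of the fit. Differences between libraries used log2(CPM + 0.1). The tests were tried on simulated counts. Counting error is large for Thpo and Il6 at this depth.

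All factors were named. Of each other list, up to 4 genes past the threshold, or else the gene with the largest fitted change, were named, with the 3 nearest profiles for 3 factors. The factors, lists and alternatives (other scalings, DESeq2 1.42.0, limma 3.58.1, filters, a block, a term for or removal of MO2 and MC3, single libraries left out) were chosen with earlier results of these data known. Sleuth was not used here.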

Additional observations from a re-analysis of the deposited data

How the results depend on the processing

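No support factor was past the threshold in any fit except Kitl with the term for MO2 and MC3 (1 called, lower). The number of factors whose groups did not overlap, 0 with all libraries, was 4 without MO2 and MC3 and 0 to 3 with single libraries left out: 3 without MO1 (Kitl, Angpt1 and Vcam1, lower), 2 without MO2 (Thpo and Jag1, higher), 1 without MC2 (Il6, higher) and 2 without MC3 (Kitl and Flt3l, lower). Of all genes tested, 59.7% did not overlap without MO2 and MC3, 25.5% without MO1, 48.0% without MO2, 26.3% without MC2 and 32.9% without MC3. Over all genes tested, 579 calls became 1268 with DESeq2, 356 with limma on log2(TPM + 0.5), 3999 with the term for MO2 and MC3, 1702 without these libraries, 2 at a threshold of 0.05, and 0 to 549 with single libraries left out: 0 without MO1, MO2 or MO3, 283 without MC1 and 281 without MC2. In the lists of related genes (markers apart), 3 calls became 7 with DESeq2, 0 with limma, 17 with the term, 11 without MO2 and MC3, 1 with the length offset, 0 at 0.05, and 0 to 2 with single libraries left out (0 without MO1, MO2 or MO3 and 1 without MC1 or MC2). The cause was not tested.

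The Il7 estimate turned to 0.0013 with DESeq2 size factors, 0.0018 with DESeq2's test and 0.0019, 0.0021 and 0.0017 with limma at pseudocounts of 0.5, 0.1 and 1. With single libraries left out, Il7 ran from -0.12 to 0.17, Csf1 from -0.28 to 0.41, Flt3l from -0.65 to 0.29, Thpo from -0.17 to 2.05 and Lif from -0.54 to 1.56. Kitl, Angpt1 and Vcam1 stayed below 0 and Il6 and Jag1 above 0 in every alternative tried. As CPM per effective length, Kitl and Flt3l exchanged places in the order of levels. As shares of estimated counts, Kitl-202 held 90.9% of Kitl and Csf1-201 70.5% of Csf1 in MS-5 only, against 67.4% and 52.0% of TPM.

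The replicate numbers did not pair the libraries: deviations from the group means correlated across genes at 0.53 for MO1 and MC1, -0.29 for MO2 and MC2 and -0.52 for MO3 and MC3, and not every library correlated best with its own number. With the replicate number as a block, 444 genes were called, 0 of the 10 factors and 1 gene of the related lists (Socs3, with Csf1r and Notch3 at an adjusted p of 0.184 and 0.252), and Il7 was at 0.010.

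At this depth Thpo and Il6 rested on 10 to 151 and 29 to 106 estimated counts per library. The SE of the log2 fold change went from 0.89 to 0.34 in Thpo, 0.36 to 0.071 in Csf1 and 0.83 to 0.24 in Lif with the term for MO2 and MC3.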

Other observations

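Transcripts of the support factors that are not described above also differed between libraries. Thpo was given to Thpo-201 alone in MO3 and MC1, to Thpo-204 alone in MO1, and to both in MO2 and MC3, where Thpo-204 held 33.0% and 41.4% of Thpo TPM from 29.97 and 63.5 estimated counts. Vcam1-202, a transcript of 749 bases, held 5.08%, 19.0% and 0% of Vcam1 TPM in MO1, MO2 and MO3 and 10.9%, 0% and 17.4% in MC1, MC2 and MC3, while the level of the whole gene was even. Lif-203, which is annotated as not coding, held 35.6%, 36.8% and 0% and 16.6%, 26.5% and 33.3%, so that it was listed at 0 in MO3 and made up a part of Lif in every other library. Il7-201 was the largest transcript of Il7 in every library, at 51.6%, 44.0% and 48.0% and 47.2%, 39.3% and 51.7%. No test was made on these shares, which rest on few counts in Thpo and Lif and for Vcam1-202 (0 to 21.3 estimated counts per library).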
